A study of Mus musculus with 19 samples.

Results

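The comparison set *Spehd* knockdown against *Renilla* control in mouse LSK cells. LSK cells are the Lineage− Sca1+ cKit+ cells of the bone marrow, which the sample labels call KLS. It used 10 of the 19 libraries of the series. They were chosen by label alone, as every LSK library with either hairpin against the long noncoding RNA *Spehd* (6 libraries, 3 with sh10 and 3 with sh20, read as 1 group) and every LSK library with the hairpin against *Renilla* luciferase (4 libraries). The question was which genes differ in abundance in stem and multipotent progenitor cells when the lncRNA is depleted.

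All groups shared the same host and vector. E-SLAM HSCs of C57BL6 donors carried a doxycycline-inducible ultramiR shRNA vector with a zsGreen reporter and SFFV-driven rtTA, so the controls also carried zsGreen, rtTA and an shRNA. They were transplanted without competitor cells into sublethally irradiated C57BL/6-CD45.1; cKit-w41 recipients of both sexes that were 9 to 12 weeks old. Doxycycline was given in food for 6 days after 10 weeks of reconstitution, and zsGreen+ LSK cells were sorted. zsGreen marks cells that express the cassette and does not measure *Spehd*. No counted gene carries that name, so the depth of knockdown in these 10 libraries was not analysed here. The labels give replicate letters but do not say that letters are separate animals, so p-values measure the spread between libraries, which may be technical.

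The 2 hairpins define the knockdown group, so their guide strands, read from the designed hairpin sequences, are shown. Each is 22 bases long and the capitals mark bases 2 to 8, the seed that pairs first with a target.
sh10 guide: tACAAAGTcagcttttcctctc
sh20 guide: tATGCTATgacaacccagggca
The seeds of both guides differ.

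LSK cells hold the long-term HSCs and the multipotent progenitors from which all blood lineages arise. Their state rests on a network of transcription factors such as *Gata2*, *Runx1*, *Tal1*, *Meis1* and *Hlf*, while surface proteins such as Kit, Sca1 and CD34 define the gates used to sort them. Common myeloid progenitors (CMPs), the other population of the series, are a later, myeloid-committed stage. A long noncoding RNA can act near its own gene or elsewhere, so genes beside the locus were read alongside these groups.

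Each library held between 3647318 and 5617906 counts on genes. Totals were 5177520 ± 423527 (SD, n = 6) with *Spehd* shRNA and 4477180 ± 580421 (SD, n = 4) with *Renilla* shRNA (two-sided p = 0.0571 by exact permutation, adjusted p = 0.171 over 9 library measures). The difference of 700340 was 423718 without *Renilla* replicate C, the smallest library. The hairpins differed in the number of genes with at least 1 count. This was 17587 to 17817 with sh20, 20142 to 20678 with sh10 and 19026 to 20032 with *Renilla* shRNA, so the libraries of each *Spehd* hairpin lay on opposite sides of the control and did not overlap each other. Reduced to the depth of the smallest library, sh20 libraries still held 17079 ± 172 genes (SD, n = 3) against 19321 ± 471 with sh10 (SD, n = 3) and 18964 ± 456 with *Renilla* shRNA (SD, n = 4).

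The knockdown library sh10 replicate B stood apart from the other 9. Principal component 1 held 37.1% of the variance over 10565 genes averaging 50 counts or more, and placed this library at 75.2 and the others between -15.4 and -2.67. Its departure followed the base composition of genes. In the fifth of genes with the lowest GC content its log2 CPM (the count scaled to the library's total) differed from the mean of the other libraries by a median of -0.93, and in the fifth with the highest GC content the difference was 0.43. For the other libraries, each set against the remaining 9, these medians ran from 0.072 to 0.16 and from -0.086 to -0.0082. Genes low in it included *Tlr4* at 0.401 CPM against 14.8 to 32.6 elsewhere, and *Yes1* at 0.2004 against 7.74 to 18.1. Genes high in it were the inhibitor *Cdkn1a*, at 38.1 against 5.73 to 17.9, and the neutrophil granule gene *Ngp*, at 105 against 0 to 73.0. These 4 genes were chosen after their values were seen. Values without this library follow for key genes. For gene lists, square brackets after a median give its lowest and highest value when each of the 10 libraries was left out, with the replicate concerned, and then its value with log2 total counts as a covariate (with depth). Totals differ between the groups, so this covariate also takes up part of what separates them.

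**Figure D1:**
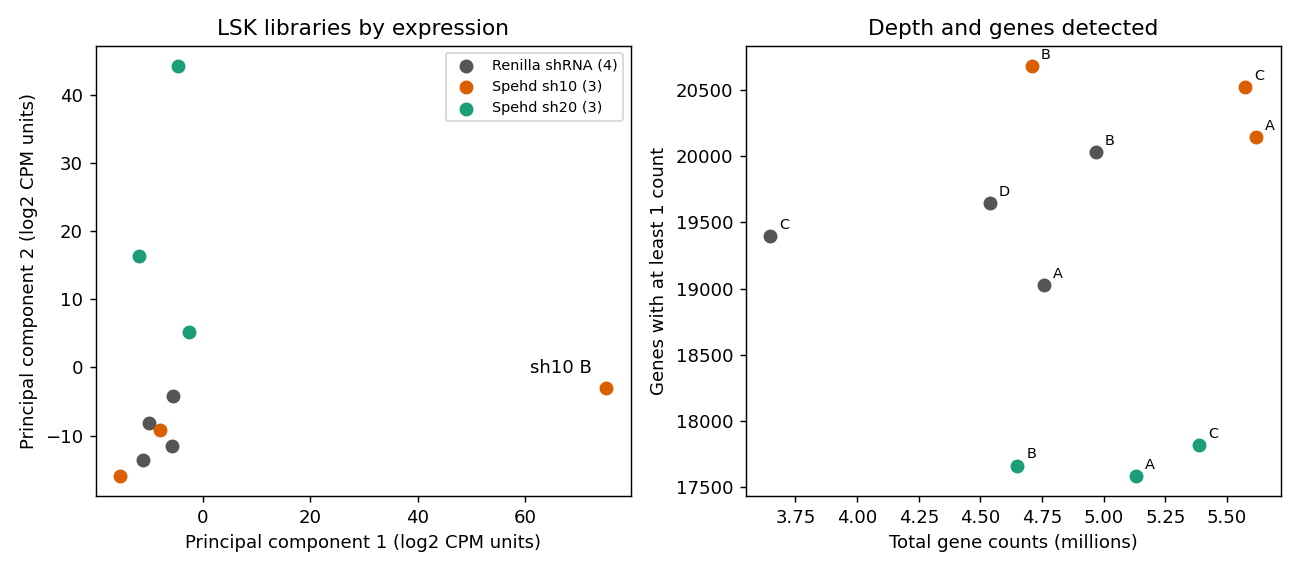
Left, the 10 LSK libraries on principal components 1 and 2 of log2 CPM. Right, genes with at least 1 count against total gene counts, with replicate letters. sh10 replicate B lies at 75.2 on component 1, and the sh20 libraries hold 17587 to 17817 genes, below every other library.

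The sorted identity was present in every library. *Kit*, the stem cell factor receptor, lay at 414 to 806 CPM with *Spehd* shRNA and 801 to 980.0 with *Renilla* shRNA. *Ly6a*, which encodes Sca1, lay at 50.8 to 85.6 and 40.7 to 61.4 CPM, and *Cd34* at 427 to 489.9 and 477 to 570.4. *Ptprc*, which encodes the pan-leukocyte protein CD45, lay at 99.2 to 369.8 and 318 to 388, and *Flt3*, a receptor of multipotent and lymphoid progenitors, at 259 to 453 and 369 to 418. The lowest *Kit* and *Ptprc* values, 414 and 99.2 CPM, were those of sh10 replicate B.

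Markers of other cells varied between libraries of the same group. The summed level of the 11 mature neutrophil markers was 7.11 to 346 CPM with *Spehd* shRNA and 8.41 to 359 with *Renilla* shRNA. It was 346 in sh10 replicate B and at most 106 in the other knockdown libraries, and at most 24.9 in a sh20 library. The 10 neutrophil markers tested had a median log2 fold change of -0.70, with a median SE of 1.16. It was -1.91 without sh10 replicate B and -0.20 without *Renilla* replicate B. Against the same controls sh10 alone gave 0.010 and sh20 alone -3.78, with all 10 negative. With sh20, 6 were lower at an unadjusted p under 0.05 in edgeR, beside 5.13% of all genes. The 7 red cell markers, globins included, summed to 9.06 to 113 CPM with *Spehd* shRNA and 7.33 to 15.5 with *Renilla* shRNA. The 8 macrophage markers summed to 215 to 542 CPM with *Spehd* shRNA and 289 to 431 with *Renilla* shRNA. The lowest-count defining markers were *Pax5*, counted at 0 in 9 of the 10 libraries, and the endothelial gene *Cdh5*, also at 0 in 9. Both groups overlapped in each of these sums, and their part in the results below was not tested. In bulk RNA, fewer cells of a type and less RNA per cell cannot be told apart.

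No gene differed between *Spehd* and *Renilla* shRNA at an FDR of 0.05. The quasi-likelihood test of edgeR, adjusted by Benjamini-Hochberg, called 0 of 13441 genes (0%), with a smallest adjusted p of 0.998. An unadjusted p under 0.05 was found for 492 genes, 249 higher with *Spehd* shRNA (1.85%) and 243 lower (1.81%). DESeq2 also called 0 genes, of 30378 with an adjusted p, and 779 had an unadjusted p under 0.05. The 6 knockdown values and the 4 control values did not overlap for 63 genes with the knockdown higher (0.469%) and 64 with it lower (0.476%). The median log2 fold change over all genes was 0.0047. Without sh10 replicate B the edgeR count stayed at 0, with 816 unadjusted p-values under 0.05, while DESeq2 then called 1 gene, *Firre*.

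The spread between libraries set the precision of these estimates. The median standard error of a log2 fold change was 0.191 over genes averaging 50 counts or more, and 0.153 without sh10 replicate B. The common biological coefficient of variation was 0.307, and 0.256 without that library, against 0.313 in the CMP libraries of the series. No adjusted p passed, so the fold changes that follow are estimates with their errors, and words such as higher and lower describe these libraries.

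**Figure D2:**
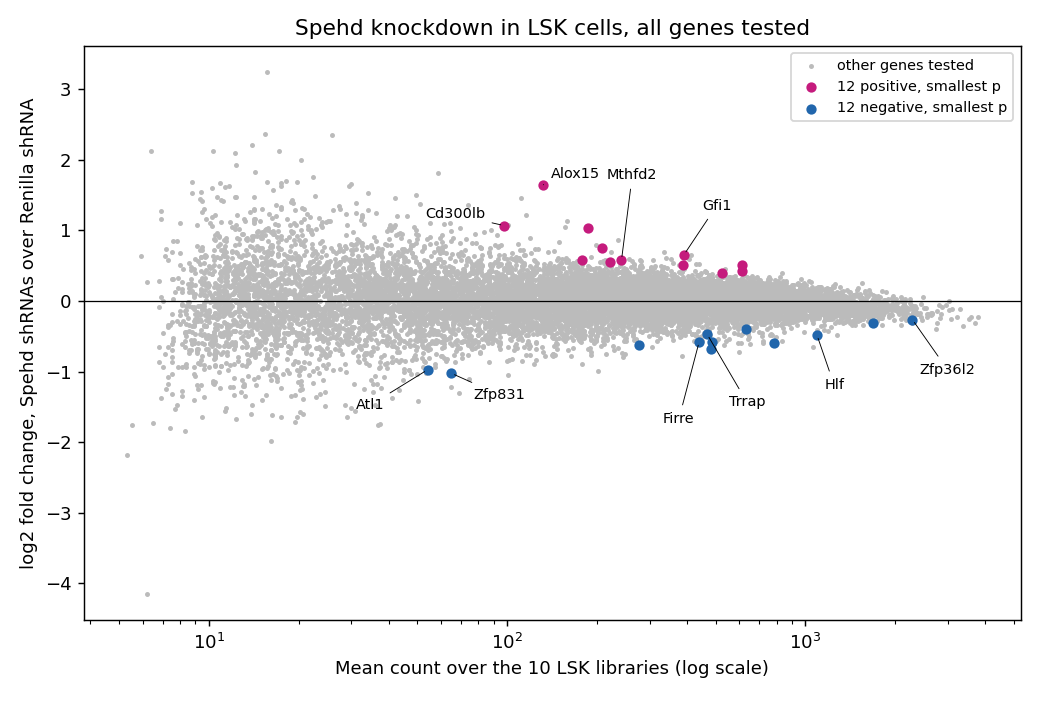
Log2 fold change of *Spehd* over *Renilla* shRNA in LSK cells against the mean count, on a log axis, for the 13441 genes tested. Coloured points are the 12 genes of each sign with the smallest p among those averaging 50 counts or more, and none of them has an adjusted p under 0.998.

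Some abundant genes had counts that hardly varied between libraries of different depth. Duplicate alignments had been removed before counting, and the part of that step in these counts was not tested. *B2m*, the light chain of MHC class I, had 825, 820 and 815 counts with sh10, 806, 804 and 820 with sh20 and 797, 825, 807 and 824 with *Renilla* shRNA. The MHC class I heavy chain *H2-K1* had 1606 to 1648 and *Atp5b*, the catalytic subunit of ATP synthase, 1638 to 1720. Over the 10 libraries 67 genes averaging 50 counts or more had a variance below their mean, which is less than counting noise alone gives. Ribosomal protein genes, abundant in most cells, held 0.222% to 0.308% of the counts of a library.

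A flat count divided by a larger total gives a lower CPM. The 67 genes were picked for flat counts, so by arithmetic their log2 fold change follows the ratio of the totals, and their median of -0.21, with 66 negative, is no finding about them. What made the counts flat was not tested. The share of counts in the 100 most abundant genes was 4.78% to 5.01% with *Spehd* shRNA and 5.09% to 5.60% with *Renilla* shRNA, which do not overlap (two-sided p = 0.00476 by exact permutation, as small as 6 against 4 allow, adjusted p = 0.0429). The difference of -0.32 percentage points was -0.20 without *Renilla* replicate C. For some flat genes the raw counts are given beside the fold change, but not for *Pkm* and *Rpl4*.

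**Figure D3:**
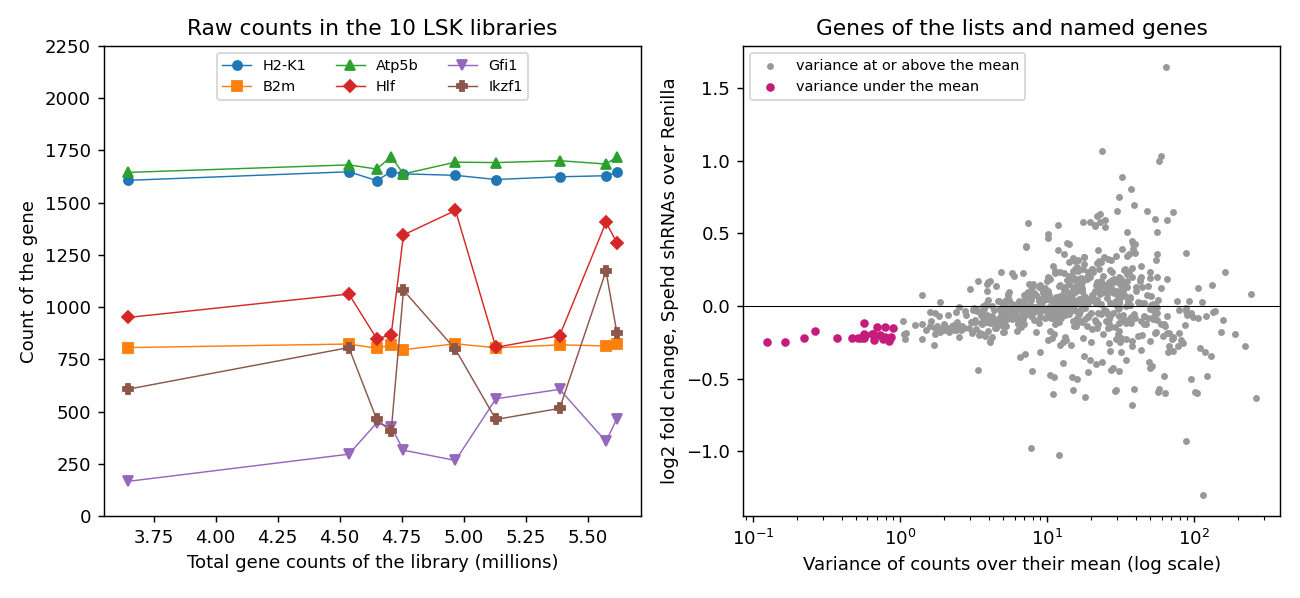
Left, raw counts of 6 genes in each LSK library against the library's total gene counts. Right, log2 fold change against the variance of the counts over their mean, on a log axis, for the listed and named genes averaging 50 counts or more. *B2m* stays between 797 and 825 counts at every depth, and all coloured genes, those with a variance under the mean, lie below a log2 fold change of 0.

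The 12 genes of smallest p and lower level with *Spehd* shRNA, read among genes averaging 50 counts or more, are given first as a description. They were picked by their p in this comparison, so their values describe it and add no support. *Firre* (ENSMUSG00000085396.7, chrX:50555744-50635321 in GENCODE vM21 on GRCm38, minus strand) is an X-linked long noncoding RNA that helps to organise chromosomes in the nucleus. Its level was 75.1, 53.1 and 82.9 CPM with sh10, 75.2, 91.2 and 82.7 with sh20 and 115, 107, 119 and 118 with *Renilla* shRNA. All 6 knockdown values lay below all 4 controls. The log2 fold change was -0.58 (SE 0.14), with a 95% interval from -0.89 to -0.27 and an adjusted p of 0.998 in edgeR. Without sh10 replicate B it was -0.49, with an adjusted p of 0.797 in edgeR, and DESeq2 gave -0.49 with an adjusted p of 0.00578.

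*Hlf*, a PAR family transcription factor that marks long-term HSCs, stood at 233, 174 and 259 CPM with sh10, 159.5, 184 and 159.8 with sh20 and 290.2, 298, 265 and 235 with *Renilla* shRNA. Only sh10 replicate C exceeded the lowest control. Its log2 fold change was -0.48 (SE 0.15), or -0.45 without sh10 replicate B. *Trrap*, the scaffold of histone acetyltransferase complexes, had a lowest, median and highest value of 73.1, 84.5 and 96.1 CPM with *Spehd* shRNA against 123, 97.0, 122 and 126 with *Renilla* shRNA, so the groups did not overlap. Its log2 fold change was -0.47 (SE 0.12). *Zfp36l2*, an RNA-binding protein that promotes mRNA decay, lay at 411 to 467 CPM against 476 to 583, with a log2 fold change of -0.26 (SE 0.071). These values did not overlap either.

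*Nbeal2*, needed for the alpha granules of platelets, lay at 93.30 to 188.8 CPM against 189.5 to 223.2, with a log2 fold change of -0.59 (SE 0.18). *Arglu1*, a nuclear protein linked to splicing, lay at 98.5 to 139 against 140.1 to 164, with -0.40 (SE 0.12). *Atl1*, a GTPase that shapes the endoplasmic reticulum, and the zinc finger gene *Zfp831* were low in all libraries and had the largest log2 fold changes of the 12, -0.97 (SE 0.30) and -1.02 (SE 0.32). Knockdown and control values did not overlap for these 4 genes. They did overlap for *Tcf7l2*, a transcription factor of the Wnt pathway (-0.62, SE 0.18), *Akap9*, a scaffold of the centrosome and Golgi (-0.68, SE 0.20), *Arhgef2*, an exchange factor for RhoA (-0.31, SE 0.083), and the septin *Sept2* (-0.58, SE 0.17). All 12 were negative in each hairpin read alone and without sh10 replicate B.

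The 12 genes with the smallest p and a higher level are given next, picked in the same way and with the same limit. *Mthfd2*, the mitochondrial enzyme that oxidises methylene-tetrahydrofolate, stood at 51.9, 71.3 and 53.6 CPM with sh10, 59.2, 46.5 and 54.9 with sh20 and 41.6, 36.9, 37.4 and 34.9 with *Renilla* shRNA. The groups did not overlap. The log2 fold change was 0.58 (SE 0.15), with a 95% interval of 0.25 to 0.90. *Cd300lb*, an activating receptor of myeloid cells, was higher in every knockdown library, at 16.9, 25.3 and 35.9 CPM (lowest, median and highest) against 10.1, 13.0, 8.93 and 15.03, with a log2 fold change of 1.07 (SE 0.26). *Gfi1*, a transcriptional repressor that restrains HSC proliferation and is required for neutrophils, stood at 83.3, 85.6 and 65.9 CPM with sh10, 111, 96.4 and 112 with sh20 and 68.1, 54.4, 46.6 and 65.6 with *Renilla* shRNA. All knockdown values except that of sh10 replicate C lay above the controls, with a log2 fold change of 0.65 (SE 0.18) for both hairpins.

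*Alox15*, the lipoxygenase of eosinophils and some macrophages, had the largest estimate of the 12, 1.64 (SE 0.48), over a wide range of 13.6, 35.6 and 62.7 CPM with *Spehd* shRNA and 3.63 to 21.7 with *Renilla* shRNA. *Clpb*, a mitochondrial disaggregase, was at 99.4 to 136 CPM against 85.8 to 94.0 (0.39, SE 0.11), *Dnajc30*, a J-domain protein, at 32.8 to 52.1 against 22.3 to 31.4 (0.58, SE 0.18), and *Uqcc1*, an assembly factor of complex III, at 116 to 164 against 90.4 to 118 (0.43, SE 0.13). *Cyp51*, an enzyme of cholesterol synthesis, lay at 65.9 to 101 against 48.3 to 72.5 (0.51, SE 0.16). The remaining 4 were *Exoc3l* (0.75, SE 0.22), *Slc16a11* (1.03, SE 0.31), *Ift22* (0.56, SE 0.17) and the peptidase *Thop1* (0.51, SE 0.16). Knockdown and control values were apart for *Clpb*, *Dnajc30*, *Exoc3l* and *Ift22*.

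Transcription factors of the stem cell network were mostly at lower values, with 23 of 31 tested members negative and a median log2 fold change of -0.18 [-0.22 without *Renilla* B, -0.10 without sh10 B, -0.16 with depth], beside 6604 of 13441 and 0.0047 over all genes. None passed the FDR threshold. Of the 31, 5 were lower and 1 higher at an unadjusted p under 0.05, where 1.81% and 1.85% of all genes were. Among the lower ones were *Hlf*, *Etv6*, *Ikzf1* and *Lmo2*, and the higher one was *Gfi1*. *Ikzf1*, a zinc finger factor of lymphoid priming, had a log2 fold change of -0.59 (SE 0.26). *Ikzf1* stood at 156, 81.3 and 216 CPM with sh10, 91.4, 100.3 and 95.4 with sh20 and 233, 163, 169.7 and 178 with *Renilla* shRNA, so that all sh20 values were below the controls and, with sh10, only replicate C lay inside their range. *Etv6*, an ETS repressor needed by adult HSCs, was at -0.20 (SE 0.086). *Lmo2*, a bridging protein of the *Tal1* complex, was at -0.19 (SE 0.087), and its counts moved little with depth, with a variance 3.62 times the mean and a log2 fold change of -0.019 with log2 total counts as a covariate.

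Most other members of the network had estimates close to 0 or intervals that spanned it. *Gata2* had a log2 fold change of -0.090 (SE 0.10), with a 95% interval of -0.32 to 0.14, *Runx1* of -0.12 (SE 0.13), *Tal1* of -0.25 (SE 0.13), *Meis1* of -0.19 (SE 0.10) and *Myb* of -0.20 (SE 0.13). *Mecom* and *Bmi1* had wide errors, at -0.19 (SE 0.36) and -0.18 (SE 0.41), and without sh10 replicate B they were at 0.020 and 0.039. In that library they stood at 27.6 and 12.4 CPM, against 109.8 and 63.1 at the lowest in the other 9. Without that library 21 of 31 were negative, with a median of -0.10. The factors of the HOXA and HOXB clusters had no shared direction, with *Hoxa10* at -0.38 (SE 0.20), *Hoxa9* at 0.0029 (SE 0.15), *Hoxa7* at 0.067 (SE 0.18) and *Hoxb5* at 0.41 (SE 0.48). The signs of *Hoxa9*, *Hoxa7* and *Hoxb5* turned under some of the alternative settings.

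**Figure D4:**
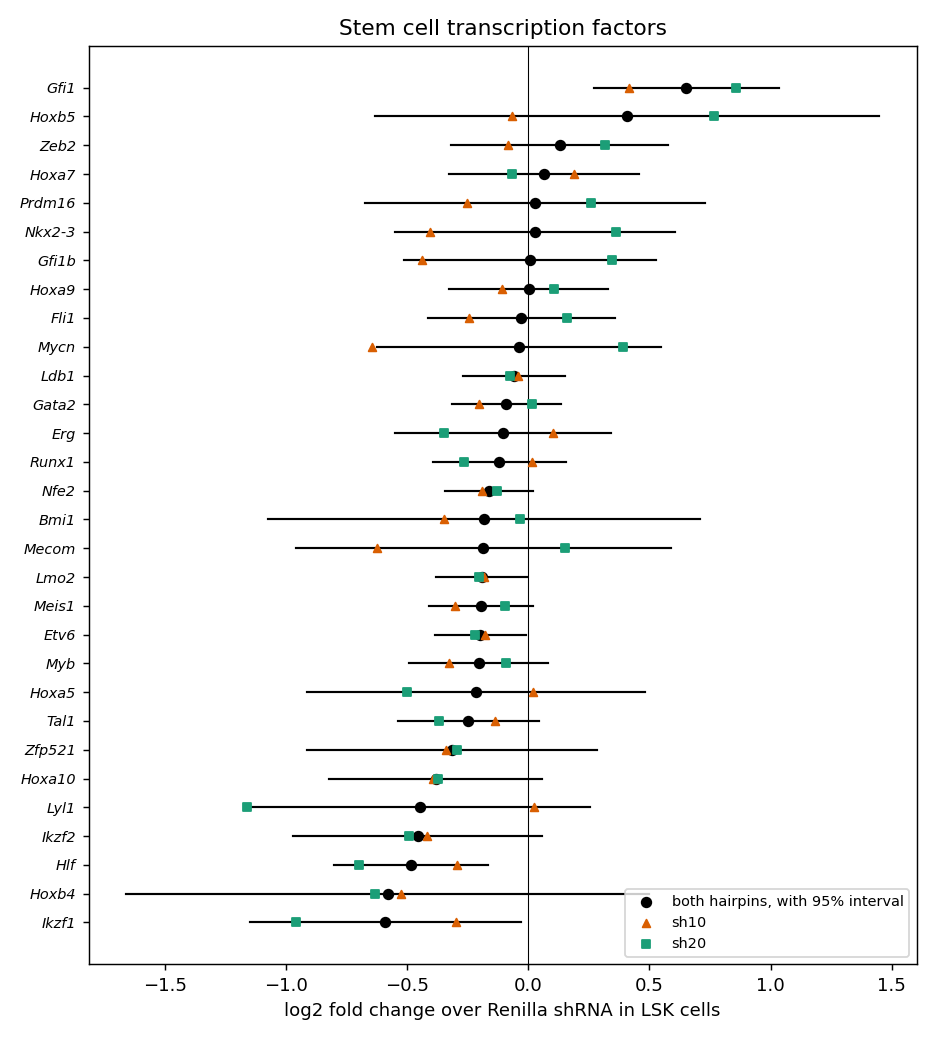
Log2 fold change of stem cell transcription factors over *Renilla* shRNA in LSK cells. Black points are both hairpins with the 95% interval of the edgeR fit, and triangles and squares are sh10 and sh20, which share the same controls. *Gfi1* is the highest at 0.65 and *Ikzf1* the lowest at -0.59.

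Genes of long-term HSCs and the surface proteins of the stem and progenitor gates showed no common direction. Of 27 long-term stem cell genes 16 were positive, with a median of 0.060 [-0.045 without sh20 C, 0.13 without sh10 C, 0.14 with depth]. The hairpins gave different values for this list, a median of -0.36 with sh10 (24 negative) and 0.39 with sh20 (18 positive) against the same controls. In sh10 replicate B the list summed to 2532 CPM, against 2972 to 3856 in the other knockdown libraries. At an unadjusted p under 0.05 in edgeR, 8 were higher with sh20 (3.2% of all genes) and 2 lower (5.13%). With sh10, 0 were higher (1.85%) and 3 lower (1.45%). With both hairpins as 1 group none of the 27 was higher and 2 were lower, beside 1.85% and 1.81% of all genes. The 2 were *Hlf* and *Adgrg1*, the adhesion receptor GPR56, at -0.23 (SE 0.081), whose counts ran only from 3509 to 3696. *Procr*, which encodes the E-SLAM marker EPCR, was at 0.35 (SE 0.21), with -0.0047 for sh10 and 0.63 for sh20. *Slamf1*, which encodes CD150, was at 0.24 (SE 0.40). Among the 19 surface proteins the median was -0.027 [-0.068 without *Renilla* A, 0.040 without sh20 A, 0.057 with depth]. *Fcgr2b*, an inhibitory Fc receptor, was higher at 0.47 (SE 0.17), with 26.2 to 39.1 CPM against 20.4 to 27.9. *Cd34* was lower at -0.17 (SE 0.066), *Kit* stood at -0.32 (SE 0.15) and *Ly6a* at 0.34 (SE 0.18). *Cd48*, which separates multipotent progenitors from HSCs, stood at 0.041 (SE 0.10) and *Flt3* at -0.13 (SE 0.14).

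Lineage priming, the low expression of mature lineage genes in stem cells, was described by lists for 3 branches. Granulocyte and monocyte genes had a median of 0.034 [-0.064 without sh10 B, 0.085 without sh20 C, 0.14 with depth] (22 tested). Erythroid and megakaryocyte genes had 0.11 [0.0095 without sh20 C, 0.18 without sh10 C, 0.25 with depth] (23 tested) and lymphoid genes -0.046 [-0.14 without sh10 C, -0.0057 without sh20 C, -0.13 with depth] (21 tested). *Csf1r*, the M-CSF receptor, was higher at 0.59 (SE 0.25), with 52.5 to 141 CPM against 56.2 to 78.0, and *Anxa3* at 0.55 (SE 0.21). *Mpo*, the myeloperoxidase of granules, was lower at -0.18 (SE 0.081), on counts that ran from 2239 to 2531, and its log2 fold change was -0.0041 with log2 total counts as a covariate. *Car2* was lower at -0.23 (SE 0.088), again on flat counts of 1498 to 1582. At an unadjusted p under 0.05, 2 of the 22 granulocyte and monocyte genes were higher and 1 lower, and 1 gene was lower in each of the other lists, which was *Ikzf1* for the lymphoid one. Of all genes 1.85% were higher and 1.81% lower.

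Genes beside the *Spehd* locus were examined because a noncoding RNA can act in cis. Within 500 kb of the predicted locus on chromosome 6, 44 annotated genes were listed in the files and 24 passed the filter on low counts. Their median log2 fold change was 0.0054 [-0.054 without *Renilla* D, 0.048 without *Renilla* C, 0.11 with depth], with 12 positive and 12 negative. Its sign changed in 5 of the 10 settings. *Gata2* (ENSMUSG00000015053.14, chr6:88193891-88207032, plus strand), which the predicted locus overlaps, stood at 423, 479 and 401 CPM with sh10, 425, 593 and 499 with sh20 and 492, 459.9, 531 and 518 with *Renilla* shRNA. Both hairpins overlapped the controls, and the log2 fold change was -0.090 (SE 0.10), or 0.063 with log2 total counts as a covariate. *Rpn1*, a subunit of oligosaccharyltransferase, lay at 345 to 401 against 370.0 to 424, with -0.060 (SE 0.070). Of the 24, 1 was higher and 2 were lower at an unadjusted p under 0.05, beside 1.85% and 1.81% of all genes. They were the small GTPase *Rab43* (0.57, SE 0.23), the linker histone *H1fx* (-0.39, SE 0.16) and the nucleic acid binding protein *Cnbp* (-0.23, SE 0.088). *Cnbp* had flat counts of 1484 to 1583. *Gm38708*, the noncoding gene that overlaps the predicted locus, had 0 to 22 counts in a library and did not pass the filter.

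Cell cycle lists had small medians, while single genes ran from -0.57 in the mitosis list to 0.63 in the G1 list. The 30 DNA replication genes had a median of -0.029 [-0.070 without *Renilla* B, -0.011 without sh20 C, -0.0084 with depth] and the 24 mitosis genes -0.060 [-0.11 without sh20 A, 0.017 without sh10 B, 0.021 with depth]. The 17 G1 cyclins, kinases and inhibitors had 0.039 [-0.0085 without *Renilla* B, 0.074 without *Renilla* C, 0.070 with depth]. For mitosis sh10 alone gave -0.16 and sh20 alone 0.054 against the same controls. The sh10 value includes replicate B, where these genes summed to 3321 CPM, against 4178 to 6034.5 in the other knockdown libraries. *Mcm6*, a subunit of the replicative helicase, was lower in every knockdown library, at 480.4 to 531 CPM against 541 to 641 and a log2 fold change of -0.18 (SE 0.062). The activators of replication genes *E2f1* and *E2f2* were higher at 0.25 (SE 0.11) and 0.54 (SE 0.25). The most abundant members of the G1 list, *Cdk4* and *Ccnd2*, stood at -0.12 (SE 0.078) and -0.085 (SE 0.077).

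Genes of oxidative phosphorylation, the chain of complexes that makes ATP in mitochondria, had small negative medians that moved with single libraries and with depth as a covariate. Complex I had a median of -0.022 [-0.094 without sh10 B, 0.027 without *Renilla* C, 0.13 with depth] (37 tested) and complex II of -0.092 [-0.14 without *Renilla* B, -0.041 without *Renilla* C, 0.048 with depth] (4 tested). It was -0.016 [-0.10 without *Renilla* A, 0.053 without *Renilla* C, 0.16 with depth] in complex III (9 tested) and -0.089 [-0.17 without *Renilla* A, -0.030 without *Renilla* C, 0.039 with depth] in complex IV (11 tested). In ATP synthase, where all 14 were negative, it was -0.11 [-0.17 without *Renilla* A, -0.048 without *Renilla* C, 0.034 with depth]. The sign of complexes I and III changed in 4 of the 10 settings each. With the depth covariate all 5 medians were positive. *Atp5b* and *Atp5a1*, the beta and alpha subunits of ATP synthase, had log2 fold changes of -0.22 (SE 0.089) and -0.18 (SE 0.081) on counts of 1638 to 1720 and 1925 to 2130. The 77 mitochondrial ribosomal proteins had a median of 0.073 [0.026 without sh10 B, 0.11 without *Renilla* C, 0.18 with depth], with 59 positive, or 44 without sh10 replicate B. *Tfb1m*, a methyltransferase of the mitochondrial ribosome, was higher at 0.50 (SE 0.23).

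The antigen presentation list was lower for 14 of 16 genes, beside 6604 of 13441 over all genes, with a median of -0.13 [-0.24 without *Renilla* D, -0.029 without *Renilla* C, 0.10 with depth]. Its 4 members with an unadjusted p under 0.05, where 1.81% of all genes were lower, were *H2-K1*, *H2-D1*, *B2m* and the immunoproteasome subunit *Psmb8*. All 4 were among the 67 genes of flat counts, whose fold change follows the ratio of the totals. So were *Pkm*, the pyruvate kinase of the glycolysis list (-0.21), and the ribosomal protein gene *Rpl4* (-0.22). The 79 cytosolic ribosomal proteins tested had a median of -0.025 [-0.10 without sh10 B, 0.016 without sh10 C, 0.079 with depth].

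Genes of serine, proline and one-carbon metabolism under the stress factor ATF4 were mostly higher, with 15 of 17 positive and a median of 0.12 [0.077 without sh10 B, 0.16 without sh20 C, 0.18 with depth], beside 6837 of 13441 and 0.0047 over all genes. Of these, 5 had an unadjusted p under 0.05, where 1.85% of all genes were higher, and none passed the FDR threshold. Those with the smallest p, beside *Mthfd2*, were *Asns*, which makes asparagine, and *Pycr1* and *Aldh18a1*, which make proline. *Asns* stood at 39.4, 45.9 and 32.4 CPM with sh10, 54.9, 72.0 and 75.6 with sh20 and 28.5, 31.8, 35.4 and 36.0 with *Renilla* shRNA. All knockdown values except that of sh10 replicate C lay above the controls. The log2 fold changes were 0.70 (SE 0.24) for *Asns*, 0.56 (SE 0.22) for *Pycr1* and 0.20 (SE 0.083) for *Aldh18a1*. The most abundant members, *Shmt2* and *Mthfd1*, which move serine carbon through folate, stood at 0.032 (SE 0.093) and 0.070 (SE 0.12). Without sh10 replicate B 14 of 17 were positive.

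Chromatin regulators of stem cells were mostly lower, with 22 of 26 negative and a median of -0.15 [-0.25 without sh10 A, -0.090 without sh10 B, -0.30 with depth], where 6604 of 13441 genes were negative in all. None passed the FDR threshold. The 3 members with an unadjusted p under 0.05, where 1.81% of all genes were lower, were *Crebbp*, a histone acetyltransferase (-0.57, SE 0.21), *Kmt2d*, a histone H3 lysine 4 methyltransferase (-0.44, SE 0.20), and *Rad21*, a subunit of cohesin (-0.60, SE 0.26). *Crebbp* stood at 102, 58.7 and 111 CPM with sh10, 75.0, 62.0 and 59.5 with sh20 and 141, 93.9, 115 and 112 with *Renilla* shRNA, so the sh20 values were below the controls and those of sh10 replicates A and C lay inside their range. The most abundant members, the maintenance DNA methyltransferase *Dnmt1* and the deubiquitinase *Bap1*, were at -0.12 (SE 0.076) and 0.015 (SE 0.11). Of 23 genes of marrow homing and adhesion 17 were negative, with a median of -0.081 [-0.10 without sh10 C, -0.080 without sh20 C, -0.094 with depth]. *Cd47*, the signal that protects cells from phagocytosis, was at -0.20 (SE 0.072) and the small GTPase *Rac1* at -0.18 (SE 0.067), and the integrin subunit *Itgb1* at -0.075 (SE 0.19). The interferon response list had a median of 0.10 [-0.012 without sh20 B, 0.16 without sh10 C, 0.22 with depth], with -0.15 for sh10 and 0.31 for sh20 against the same controls.

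**Figure D5:**
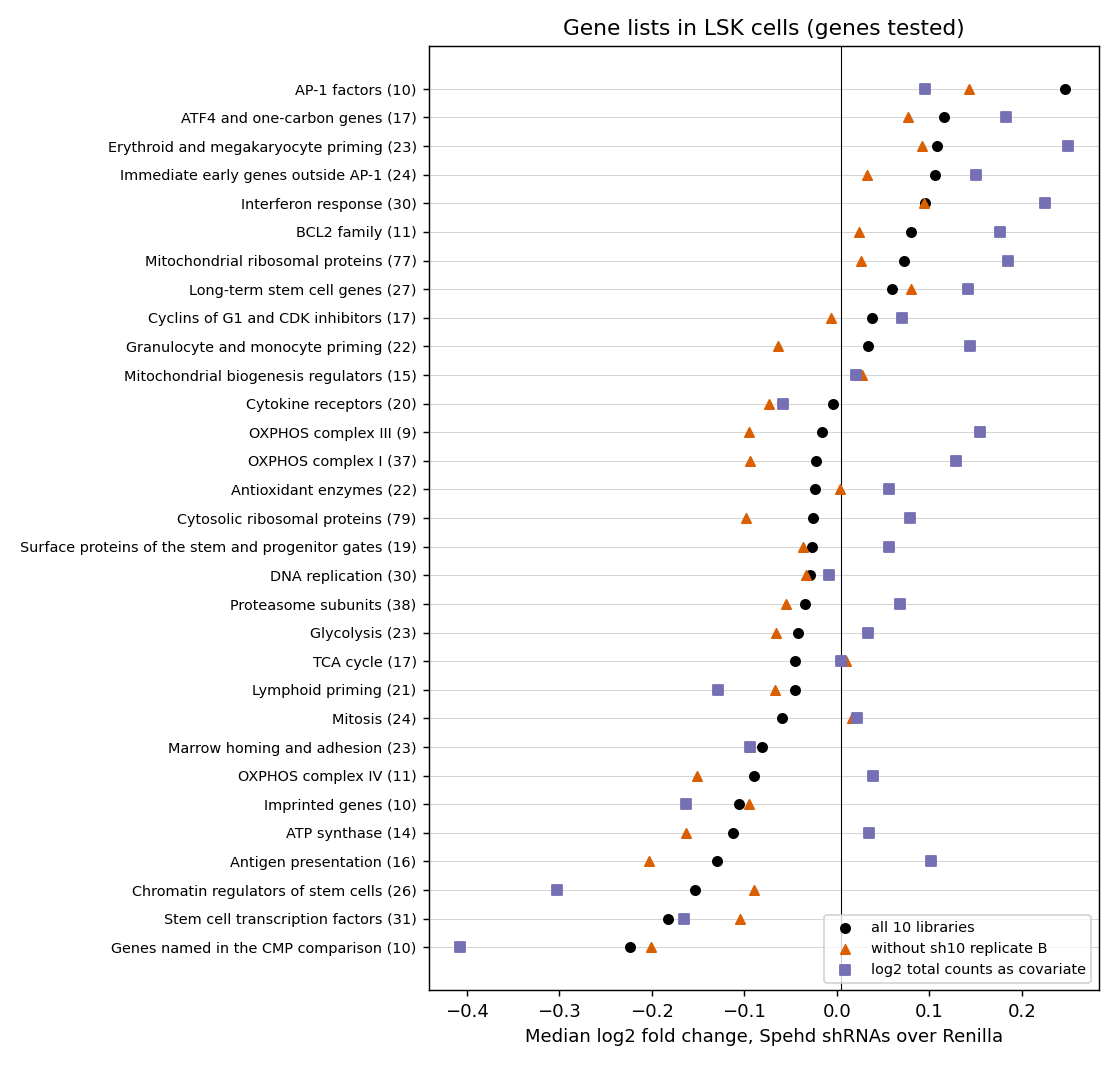
Median log2 fold change of *Spehd* over *Renilla* shRNA for gene lists with at least 9 genes tested, with the number tested in parentheses. The neighbours of the *Spehd* locus (median 0.0054) and the mature neutrophil markers (median -0.70) are not drawn. Circles are all 10 libraries, triangles leave out sh10 replicate B and squares add log2 total counts as a covariate. The vertical line is the median over all genes, 0.0047, and antigen presentation moves from -0.13 to 0.10 with the covariate.

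The knockdown effect in LSK cells was set against that in CMPs, where the series holds 5 libraries with *Spehd* shRNA and 4 with *Renilla* shRNA that are not among the 10. The interaction term in edgeR called 1 of 14104 genes at an FDR of 0.05 (0.00709%), and 1023 had an unadjusted p under 0.05 (7.25%). DESeq2 called 13 genes. As examples by list, the difference was positive for 35 of 37 complex I genes (median 0.27) and negative for 22 of 26 chromatin regulators (median -0.42). Over 13441 genes 6960 were positive, and no gene of these lists passed the FDR threshold. The gene called by edgeR was *Ccm2l*, a paralogue of the vascular gene *Ccm2*. In LSK cells it stood at 24.1, 40.1 and 23.0 CPM with sh10, 30.2, 30.9 and 71.4 with sh20 and 17.0 to 40.5 with *Renilla* shRNA. In CMPs it was scarce, at 0.393 to 0.876 CPM (2 to 5 counts) with *Spehd* shRNA and 4.74 to 7.72 with *Renilla* shRNA. The log2 fold change was 0.60 (SE 0.36) in LSK cells and -3.15 in CMPs, and the difference was 3.77 (SE 0.54, edgeR adjusted p = 0.0164). That call depended on the libraries kept and was lost when any of 6 was left out. These were CMP sh10 replicate B or C, CMP *Renilla* replicate D, and LSK *Renilla* replicate A, C or D.

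The 10 genes singled out in CMPs were read in LSK cells as a list chosen on the other libraries of this series. All 10 had negative log2 fold changes, with a median of -0.22 [-0.30 without *Renilla* B, -0.11 without *Renilla* D, -0.41 with depth], beside 6604 of 13441 negative over all genes, and none had an unadjusted p under 0.05. Without sh10 replicate B 7 of 10 were negative. In CMPs these genes shared no direction, with a median of -0.093. There *Jun*, *Junos*, *Jund*, *Sept1* and *Cd2* were lower with *Spehd* shRNA, and *Elf2*, *Trpm7*, *Ankfy1*, *Hdlbp* and *Gnptab* were higher. *Jun*, the AP-1 factor of immediate early responses, lay at 36.7 to 154 CPM against 119 to 248, with a log2 fold change of -0.60 (SE 0.33), a CMP value of -1.93 and a difference of 1.34 (edgeR adjusted p = 0.660). *Jund* was at -0.13 (SE 0.15) and -0.66 in CMPs. *Hdlbp*, an RNA-binding protein, was at -0.030 (SE 0.18) in LSK cells and 0.55 in CMPs, and *Elf2*, an ETS factor, at -0.24 (SE 0.20) and 1.10. Neither difference passed the FDR threshold (edgeR adjusted p = 0.660 and 0.330). *Cd2* was scarce, at 0.892 to 5.92 and 0.837 to 9.94 CPM. The 10 AP-1 factors tested had a median of 0.25 [0.12 without sh20 C, 0.29 without sh20 B, 0.10 with depth] in LSK cells. Reads of *Jun* and its antisense partner *Junos* could not be told apart, since these libraries do not keep the strand.

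The hairpins were then fitted as separate groups of 3, against the same 4 controls. edgeR called 0 of 13828 genes for each, with smallest adjusted p of 0.0539 for sh10 and 0.0524 for sh20. At an unadjusted p under 0.05, sh10 had 256 genes higher (1.85%) and 201 lower (1.45%), and sh20 had 443 higher (3.2%) and 709 lower (5.13%). DESeq2 called 3 genes for sh10, and 47 higher and 148 lower for sh20. sh20 compared directly with sh10 gave 0 calls in edgeR, with 1268 unadjusted p-values under 0.05, and 105 higher and 151 lower in DESeq2. The difference in genes detected between the hairpins moved with this comparison, and its part was not tested. *Firre* was at -0.70 with sh10 and -0.46 with sh20, *Hlf* at -0.29 and -0.70, *Gfi1* at 0.41 and 0.86, and *Mthfd2* at 0.64 and 0.51.

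Genes with a match to a guide's seed were described by hairpin. The seed complements, ACTTTGT for sh10 and ATAGCAT for sh20, were searched on the sense strand of annotated 3′ UTRs and cannot overlap each other. They were present in 18.8% and 9.44% of 21824 genes with such a UTR. Among tested genes above 50 counts, those with only the sh10 match (1880) had a median log2 fold change of -0.082 with sh10, those with only the sh20 match (618) -0.082, those with both (448) -0.14 and those with neither (7016) 0.016. Leaving out sh10 replicate B turned the signs, to 0.029, 0.037, 0.059 and -0.0087, a setting chosen after that library was seen to stand apart. With sh20 the medians were -0.016, -0.018, -0.048 and 0.025. Genes with a match had longer UTRs, with medians of 2286 and 2408 bases, and 3573 with both, against 1039.5. The part of the seeds in these values was not tested.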

How the data were processed

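RNA of zsGreen+ LSK cells was made into SMART-Seq v4 libraries for Illumina sequencing. The authors ran STAR against mm10, then Picard to drop duplicates and HTSeq with GENCODE vM11 to count what was left per gene, so the deposited values are raw counts per gene. Default parameters are stated, which in HTSeq assume stranded reads, while SMART-Seq v4 libraries do not keep the strand, so a gene and its antisense partner cannot be told apart. Rows for reads on no feature, left out of all totals, held 52.3% to 53.8% of counted, ambiguous and no-feature reads together.

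Of 54352 listed genes, 13441 passed edgeR's filterByExpr (minimum count 10, minimum total 15). Counts were normalised by TMM, and CPM are counts relative to the TMM-scaled total. The knockdown group was compared with *Renilla* by edgeR's quasi-likelihood test (edgeR 4.0.16, R 4.3.3), with Benjamini-Hochberg adjustment over all genes tested. limma 3.58.1 and DESeq2 1.42.0 served as alternatives. Hairpins were also fitted as separate groups, and the difference from CMPs as an interaction over all 19 libraries. The procedure was tested on simulated data. The 9 library measures were compared by exact permutation tests, and 3 of them (the share of the 100 most abundant genes, the no-feature share and the neutrophil marker sum) were added after the files were seen. Annotation for length, GC content and position came from GENCODE vM21 on GRCm38, which matched 13360 of the 13441 genes by symbol.

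The gene groups and the 41 lists were chosen with earlier results of these data known. Genes named were the neighbours within 500 kb of the predicted locus, the 12 genes of each sign with the smallest p at a mean of at least 50 counts, list members with an unadjusted p under 0.05 (at most 4) or the highest mean CPM (2), any member of the stem cell factor and surface protein lists, and the genes singled out in CMPs. Intervals cover the spread between libraries only. Alternatives were other scalings, filters and tools, a replicate block, depth as a covariate, 1 hairpin alone and leaving out each library. The deposited table of size-normalised counts over all libraries was not used here. Some members of the lists are counted but not reported here by name.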

Additional observations from a re-analysis of the deposited data

Results flagged for a closer look

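Within groups of 4 to 6 libraries, the gap between the most extreme library and its nearest neighbour was divided by the range of the group. This ratio passed Dixon's limit for 10 of 148 groups of values, where chance alone marks about 1 in 20. Among the 6 *Spehd* libraries, sh10 replicate B was the highest for the long noncoding share of counts (ratio 0.628), the no-feature share (0.681), the summed neutrophil markers (0.71) and the mean log2 CPM of complex I genes (0.659). sh20 replicate B was the highest for the mean log2 CPM of the surface proteins (0.777), and sh10 replicate C for *Tcf7l2* (0.666). Among the 4 *Renilla* libraries, replicate C, which has the fewest counts, was the highest for the share of the 100 most abundant genes (0.957) and for the platelet markers (0.942). *Renilla* replicate D was the highest for *Slc16a11* (0.846), and replicate B the lowest for *Trrap* (0.845).

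The estimated knockdown effect on *Ccm2l* was 3.77 higher on the log2 scale in LSK cells than in CMPs, and passed the edgeR interaction test. No gene passed with the replicate block or without any 1 of the 6 libraries named above. The filter of at least 10 counts in every library removed *Ccm2l* before the test, and no other gene passed there. In CMPs the gene had 2 to 5 counts in a library with *Spehd* shRNA.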

How the results depend on the processing

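The count of 0 genes for *Spehd* against *Renilla* shRNA held in edgeR under every other scaling and filter, with the block, the covariate, each hairpin alone or any library left out, and in DESeq2 on all 10 libraries, while DESeq2 without sh10 replicate B, added after that library was seen to stand apart, called 1. The mean of both hairpins gave 2 genes without a filter and 14 with DESeq2. sh10 alone gave 9 without a filter, 1 with at least 10 counts in every library and 3 with DESeq2, and sh20 alone gave 73, 1 and 195, with 0 to 1 when each library was left out. sh20 against sh10 gave 113 without a filter and 256 with DESeq2, and 0 to 5 when each library was left out. The difference from CMPs gave 2 genes without a filter, 0 with at least 10 counts in every library, 13 with DESeq2, and 0 to 5 when each library was left out.

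The 492 genes with an unadjusted p under 0.05 became 1301 without a filter, 779 with DESeq2, 844 with log2 total counts as a covariate, 1559 with only sh20 against *Renilla*, 1027 with limma voom and library weights, and 1113 with DESeq2 without sh10 replicate B, the voom and last settings being chosen after seeing the data. Leaving out each library gave 298 to 816, the lowest without *Renilla* replicate C and the highest without sh10 replicate B. It was also 299 without *Renilla* replicate A and 767 without sh10 replicate C. The cause of these shifts was not tested.

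With the replicate letter as a block, 294 genes had an unadjusted p under 0.05, and the difference from CMPs gave 0 calls. Deviations were compared between LSK libraries of different shRNAs. Those that share a letter correlated at -0.172 to 0.0696, and those of other letters at -0.106 to 0.129. Pairing of LSK and CMP libraries with the same shRNA and letter was not examined, and the interaction fit treats them as independent.

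Of 119 genes followed, 84 kept their sign in every alternative and 1, *Firre*, was called in any. Over 41 list medians, 82 of 900 alternative values moved by more than the spread between libraries, in 28 lists. Depth limited scarce genes, and counts that vary less than counting noise limited 67 abundant ones. Counts of some other genes, such as *Lmo2*, also moved little with depth. No label ties the libraries to separate animals, and the degree of knockdown was not analysed here.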

Other observations

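Gene groups not described above are given by their medians. Of the TCA cycle genes, 17 were tested and the median was -0.045 [-0.080 without *Renilla* D, 0.0095 without sh10 B, 0.0047 with depth], with the range over left-out libraries and the value with the depth covariate in brackets. *Cs*, the citrate synthase that starts the cycle, lay at 242 to 271 CPM with *Spehd* shRNA and 217 to 240.3 with *Renilla* shRNA, which did not overlap, with a log2 fold change of 0.16 (SE 0.071). The glycolysis list had a median of -0.042 [-0.070 without *Renilla* B, 0.0052 without sh20 C, 0.034 with depth] over 23 genes and the proteasome list -0.035 [-0.066 without *Renilla* B, 0.015 without *Renilla* C, 0.069 with depth] over 38. Antioxidant enzymes stood at -0.024 [-0.045 without *Renilla* B, 0.0030 without sh10 B, 0.057 with depth] (22 tested) and the BCL2 family of survival and death factors at 0.080 [0.024 without sh10 B, 0.12 without sh20 C, 0.18 with depth] (11 tested). Cytokine receptors stood at -0.0041 [-0.081 without sh10 C, 0.051 without sh20 A, -0.058 with depth] (20 tested). Among mitochondrial ribosomal proteins, *Mrpl49* and *Mrpl9* had log2 fold changes of 0.30 (SE 0.12) and 0.34 (SE 0.16).

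The 10 imprinted genes tested had a median of -0.11 [-0.16 without sh20 C, -0.015 without sh20 A, -0.16 with depth], with -0.30 for sh10 and 0.037 for sh20 against the same controls. *Kcnq1ot1*, a long noncoding RNA that silences its imprinted domain, stood at 49.4, 71.1 and 36.6 CPM with sh10, 32.4, 35.9 and 38.1 with sh20 and 58.9, 51.6, 73.1 and 63.2 with *Renilla* shRNA. The sh20 values were all below the controls, and the log2 fold change for both hairpins was -0.49 (SE 0.22). Immediate early genes outside AP-1 had a median of 0.11 [0.032 without sh10 B, 0.14 without *Renilla* D, 0.15 with depth] (24 tested). Among them *Myc*, the growth factor response gene, was at -0.18 (SE 0.084) on counts of 1784 to 2073, and -0.0083 with log2 total counts as a covariate.

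Mitochondrially encoded genes had a median of -0.16 [-0.23 without *Renilla* A, -0.093 without *Renilla* C, -0.025 with depth] (7 tested), and regulators of mitochondrial biogenesis 0.022 [-0.029 without *Renilla* C, 0.12 without sh20 A, 0.021 with depth] (15 tested). The T and NK cell markers summed to 133 to 166 CPM with *Spehd* shRNA and 141 to 171 with *Renilla* shRNA, the B cell markers to 65.6 to 97.4 and 63.3 to 71.8, the platelet markers to 91.7 to 197 and 124 to 204, and the stroma and endothelium markers to 23.7 to 70.3 and 24.6 to 48.1.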
